A study of Mus musculus with 18 samples.

Results

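The comparison asked whether the difference between 2 sorted cell fractions of the mouse mammary gland was the same in animals with the D542G and with the Y541S mutation of Esr1, which encodes estrogen receptor alpha. It used 12 of the 18 libraries, chosen by their labels, with 3 libraries in each of 4 groups. These were D542G cells of the N gate, D542G cells of the ML gate, Y541S cells of the N gate and Y541S cells of the ML gate. ML stands for mature luminal. The titles give the other gate as N, and its cell type label names no known cell type or marker. The labels give mature luminal cells as the tissue source of both gates. The 6 WT libraries, from the same 2 gates, were not tested against the mutants here. They entered through the shared estimate of the spread and the filter that set which genes were tested. WT levels are given for a few genes only, without a test. All animals, WT included, were 6 months old, carried E2 and P4 hormone pellets and then received giredestrant, an antagonist of the receptor, at 30 mg/kg by mouth each day for 4 days. The libraries therefore show the mutants under antagonist, and no group without it was analysed here. The labels call the libraries biological replicates, and do not say whether an N and an ML library with the same number came from 1 animal.

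Estrogen receptor alpha is a transcription factor that estradiol switches on in the hormone-sensing luminal cells of the mammary duct. The affected residues lie in the ligand-binding domain, where the matching human mutations give a receptor that works without hormone and respond less to endocrine drugs. Luminal cells carry keratins such as Krt8 and Krt18, and the basal or myoepithelial cells around them carry Krt5, Krt14 and Trp63 together with a contractile apparatus that ejects milk.

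The libraries held 39333438 to 49507144 counted reads in genes, and levels are given as CPM, the count of a gene relative to the scaled total of its library. The gate change of a gene is the log2 ratio of N to ML within 1 genotype. The value compared is the gate change in D542G minus the gate change in Y541S, so a positive value means that N stood higher against ML in D542G than in Y541S. D542G N libraries were alike, with correlations of 0.956 to 0.966 across the 10000 most expressed genes. D542G ML libraries 1 and 2 correlated at 0.976, whereas library 3 correlated with them at 0.916 and 0.921. D542G ML library 3 correlated at 0.94 with Y541S ML library 1. Within each gate the Y541S libraries were less alike than the D542G libraries. Y541S ML libraries correlated with each other at 0.856 to 0.897. Y541S N libraries 1 and 2 correlated at 0.917, whereas library 3 correlated with them at only 0.845 and 0.803. With D542G N libraries 1, 2 and 3, Y541S N library 3 correlated at 0.809, 0.874 and 0.81. Y541S N library 1 correlated with the same libraries at 0.887, 0.88 and 0.883. Y541S N library 3 also stood apart in skin-type keratins. The summed level of 23 keratinocyte and hair follicle keratins was 21400 CPM in it, against 1440 and 1830 CPM in Y541S N libraries 1 and 2. Y541S N library 2 stood apart in milk genes, whose sum was 39900 CPM in it, against 1890 and 2030 CPM in libraries 1 and 3. The same sum was 44100 CPM in Y541S ML library 2, against 11700 and 17700 CPM in Y541S ML libraries 1 and 3. Y541S ML library 2 also held 6090 CPM of 14 B and plasma cell markers, against 457 and 806 CPM in those libraries. Counts for several gene lists are also given without Y541S N library 2 or 3. In such sorted bulk samples, fewer cells of a type and less RNA per cell cannot be told apart.

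Esr1 itself was read in all 12 libraries. It stood at 313, 250 and 238 CPM in D542G N and at 161, 164 and 216 CPM in D542G ML. It stood at 112, 67.5 and 49.9 CPM in Y541S N and at 271, 49.4 and 112 CPM in Y541S ML. The N libraries were thus above the ML libraries in D542G, while the Y541S gates overlapped. The difference of gate changes was 1.48 ± 1.35 (log2, SE, n = 3 libraries in each group) and did not pass the test (edgeR quasi-likelihood, adjusted p = 0.837). A gene count does not show the point mutations.

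Most gate differences that were called in both genotypes had 1 direction. In D542G, 1684 of 18298 genes tested differed between N and ML at an adjusted p under 0.05 (9.2%), of which 862 were higher (4.71%) and 822 lower (4.49%) in N. In Y541S, 1272 genes did (6.95%), of which 773 were higher (4.22%) and 499 lower (2.73%). In both, 379 genes were called higher and 232 called lower in N. Another 6 were called higher in D542G and lower in Y541S, and 2 were called lower in D542G and higher in Y541S. The difference between the genotypes was tested directly as an interaction. The main fit did not pair libraries, because the labels give shared numbers without saying what they mean, and a paired fit was run as an alternative. The main fit called 20 genes (0.109% of those tested), 11 with a higher (0.0601%) and 9 with a lower gate change (0.0492%) in D542G. At an unadjusted p under 0.05 there were 1578 genes (8.62%).

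**Figure D1:**
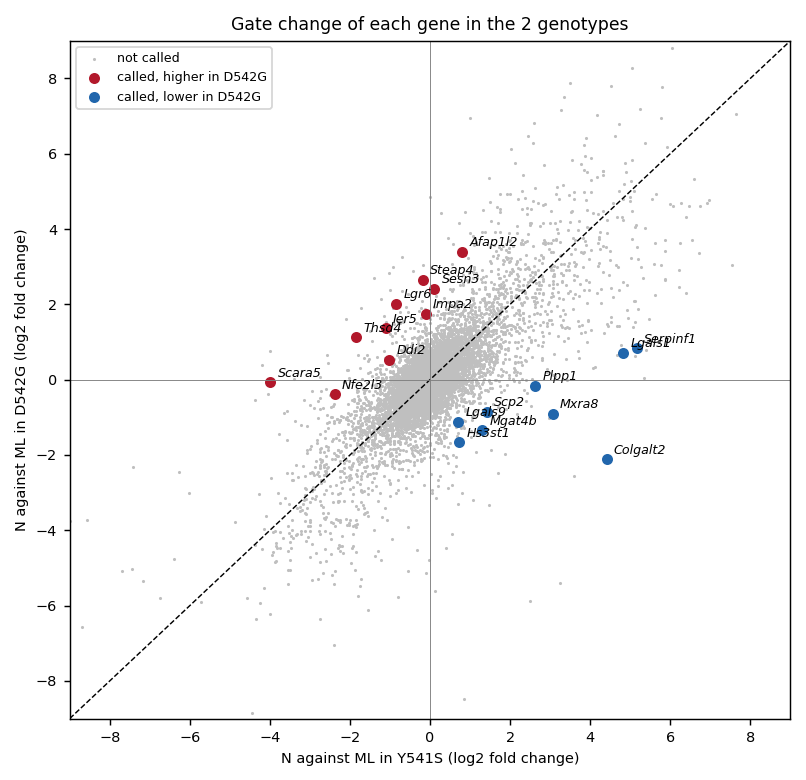
Gate change of each gene in D542G (vertical axis) against that in Y541S (horizontal axis), both as log2 fold changes of N over ML, for the 10000 genes with an average log2 CPM of at least 3. Grey points are genes that were not called, and 22 lie outside the axes. Red points are genes called with a higher gate change in D542G and lie above the dashed line of equality. Blue points are those called with a lower one and lie below it. Scara5 sits near 0 in D542G and at -3.99 in Y541S, and Serpinf1 at 0.84 in D542G and 5.16 in Y541S.

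Of the 11 genes with a higher gate change in D542G, 9 were called higher in N than ML in D542G, and 6 were called lower in N in Y541S. Of the 9 with a lower gate change, 3 were called lower in N in D542G and 7 were called higher in N in Y541S. In 8 of the 20 genes all 3 D542G N libraries lay above the other 9 libraries (3.91% of all genes tested did so). In 8 of the 20 all 3 Y541S N libraries lay above the other 9 (5.15%). The 3 D542G N libraries were the lowest in 3 genes (2.86%), and all 3 Y541S N libraries in 5 (3.29%). With gate changes taken library number by library number, the 3 values of D542G did not overlap the 3 of Y541S in any of the 20 genes. Over all genes tested 20.9% showed no such overlap. The 20 genes were called from these same libraries, so these counts describe them and are not separate evidence for the calls.

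The called genes were sensitive to single libraries and to pairing. Same-numbered N and ML libraries deviated together from their group means, with correlations of 0.239 to 0.279 in D542G and 0.298 to 0.553 in Y541S. When the numbers were used as pairs, 7 genes were called (0.0383%), 6 higher and 1 lower. Of the 20 genes, 4 remained called, which were Scara5, Ier5, Thsd4 and Mxra8, and the other 16 had paired adjusted p-values of 0.0652 to 0.193. Without Y541S N library 3, 23 genes were called (0.121% of 19083), 16 of them among the 20. The 4 that lost their call were Afap1l2, Nfe2l3, Lgals9 and Gm17344, at adjusted p-values of 0.057, 0.0622, 0.0503 and 0.0503. Without D542G N library 1, D542G N library 3 or Y541S N library 2, edgeR called 0 genes, with 1317, 1319 and 1385 genes at an unadjusted p under 0.05. Without WT N library 3, which is in neither gate change, 54 of 19137 genes tested were called, all 20 among them. With all libraries, DESeq2 called 329 genes and limma-voom 263, each with all 20 among them. The sign of the difference held for all 20 genes in every one of these fits. Because 1 library can decide a call, the called genes are given with their values by library, save Gm17344, and with the paired adjusted p.

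**Figure D2:**
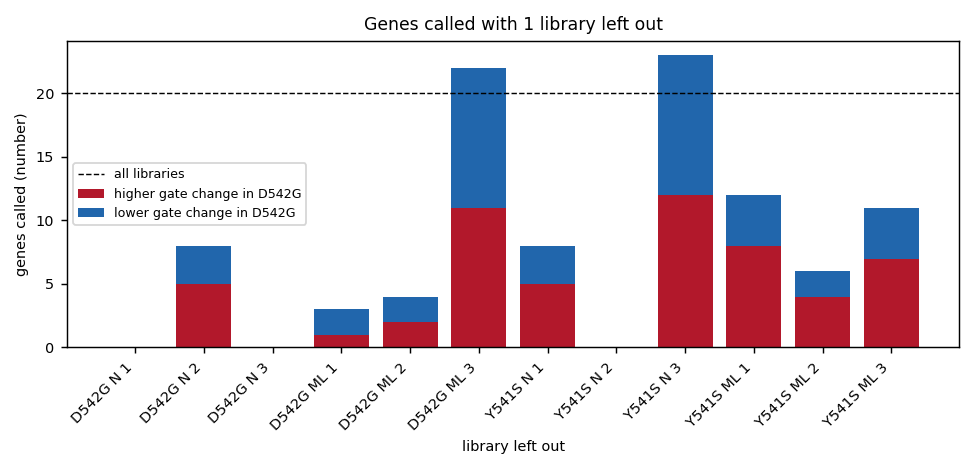
Number of genes called (adjusted p under 0.05) in the comparison of gate changes when 1 of the 12 libraries was left out, split into higher (red) and lower (blue) gate change in D542G. The dashed line marks the 20 genes called with all libraries. Bars range from 0 without D542G N library 1, D542G N library 3 or Y541S N library 2 to 23 without Y541S N library 3.

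Scara5, a scavenger receptor that takes up ferritin, had the largest positive difference among the called genes with an average log2 CPM of at least 3 (chromosome 14, 65666403 to 65764826, plus strand, GRCm38). Its levels were 84.0, 78.6 and 68.2 CPM in D542G N and 69.6, 102 and 70.8 CPM in D542G ML. They were 11.3, 9.63 and 6.17 CPM in Y541S N and 109, 163 and 158 CPM in Y541S ML. The D542G gates overlapped, while every Y541S N library lay far below every Y541S ML library and below all D542G libraries. The gate change was -0.07 in D542G and -3.99 in Y541S, a difference of 3.92 ± 0.54 (log2, SE; edgeR adjusted p = 0.0134, paired 0.0444). Scara5 in the WT libraries was 5.01 to 14.9 CPM in N and 69.0 to 161 CPM in ML.

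Ier5, an immediate early response gene, had opposite gate changes in the genotypes (chromosome 1, 155096361 to 155099636, minus strand). It stood at 1530, 1370 and 1350 CPM in D542G N and at 575, 509 and 565 CPM in D542G ML. It stood at 310, 352 and 369 CPM in Y541S N and at 685, 919 and 628 CPM in Y541S ML. N was the higher gate in D542G and the lower gate in Y541S, and no 2 of the 4 groups overlapped. The difference was 2.48 ± 0.31 (edgeR adjusted p = 0.0131, paired 0.0444). Ier5 in the WT libraries was 205 to 360 CPM in N and 559 to 641 CPM in ML.

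Thsd4 had the same outer groups (chromosome 9, 59966931 to 60522046, minus strand). It encodes a secreted protein that promotes the assembly of fibrillin microfibrils. Levels were 285, 205 and 252 CPM in D542G N, against 99.3, 66.6 and 175 CPM in D542G ML. Y541S N had 48.3, 54.3 and 32.2 CPM, against 162, 184 and 139 CPM in Y541S ML. D542G N was the highest of the groups and Y541S N the lowest. The difference was 2.97 ± 0.45 (edgeR adjusted p = 0.021, paired 0.049). Its span overlaps another annotated gene, as those of 9 of the 20 do (48.2% of all genes tested), and reads there may have been split or left out.

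Ddi2, a protease that activates the transcription factor Nrf1, had 174, 153 and 162 CPM in D542G N and 109, 113 and 117 CPM in D542G ML. Y541S N had 63.3, 49.5 and 70.6 CPM and Y541S ML 150, 106 and 117 CPM. Here too D542G N was highest and Y541S N lowest, with the ML groups overlapping between them (difference 1.56 ± 0.22, edgeR adjusted p = 0.0162, paired 0.0652). Nfe2l3, a transcription factor of the same family as Nrf1, resembled Scara5. It had 35.5, 40.0 and 33 CPM in D542G N, 42.0, 46.0 and 53.3 CPM in D542G ML, 12.6, 7.80 and 8.21 CPM in Y541S N, and 35.8, 62.3 and 50.9 CPM in Y541S ML. Only the Y541S N libraries stood apart (difference 2.0 ± 0.33, edgeR adjusted p = 0.028, paired 0.193).

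In 5 further genes with a higher gate change in D542G, N exceeded ML in D542G, while in Y541S the gates did not differ beyond the test. Steap4, a metalloreductase of the cell membrane, had 853, 889 and 669 CPM in D542G N and 152, 120 and 113 CPM in D542G ML. Its levels were 245, 172 and 276 CPM in Y541S N and 254, 245 and 285 CPM in Y541S ML. The Y541S gates overlapped, at levels between the 2 D542G gates (difference 2.83 ± 0.46, edgeR adjusted p = 0.0259, paired 0.131). Lgr6, a receptor for R-spondins that enhance Wnt signalling, had 311, 264 and 233 CPM in D542G N and 64.2, 53 and 81.4 CPM in D542G ML. It had 70.5, 62.7 and 84.2 CPM in Y541S N and 107, 168 and 115 CPM in Y541S ML. Y541S N lay below Y541S ML in every library, although its gate change of -0.84 was not called (edgeR adjusted p = 0.127). The difference for Lgr6 was 2.86 ± 0.45 (edgeR adjusted p = 0.0216, paired 0.0652).

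Afap1l2, an adaptor protein of Src and PI3-kinase signalling, had 199, 166 and 150 CPM in D542G N and 16.3, 17.2 and 15.3 CPM in D542G ML. In Y541S it had 53.7, 42.9 and 43.2 CPM in N and 25.5, 18.3 and 36.3 CPM in ML, so that N was above ML in both genotypes but less so in Y541S (difference 2.59 ± 0.42, edgeR adjusted p = 0.0259, paired 0.164). Sesn3, a sestrin that restrains mTORC1, had 101, 81.1 and 114 CPM in D542G N and 17.9, 18.5 and 19.5 CPM in D542G ML. Its Y541S levels were flat, at 26.9, 23.1 and 21.6 CPM in N and 17.9, 25.3 and 23.3 CPM in ML (difference 2.30 ± 0.33, edgeR adjusted p = 0.0162, paired 0.0652). Impa2, an inositol monophosphatase, likewise had 85.4, 71.3 and 88.0 CPM in D542G N and 19.5, 23.8 and 29.6 CPM in D542G ML, against 26.7, 26.9 and 38.1 CPM in Y541S N and 26, 41.2 and 31.5 CPM in Y541S ML (difference 1.85 ± 0.32, edgeR adjusted p = 0.0377, paired 0.132). The last of the 11, the predicted antisense gene Gm17344, stayed under 2 CPM in all 12 libraries (difference 7.59 ± 1.25, edgeR adjusted p = 0.0278, paired 0.17). It is named after its values were seen, its fitted difference depends on counts near 0, and without known strand its reads cannot be told from those of the gene it overlaps.

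**Figure D3:**
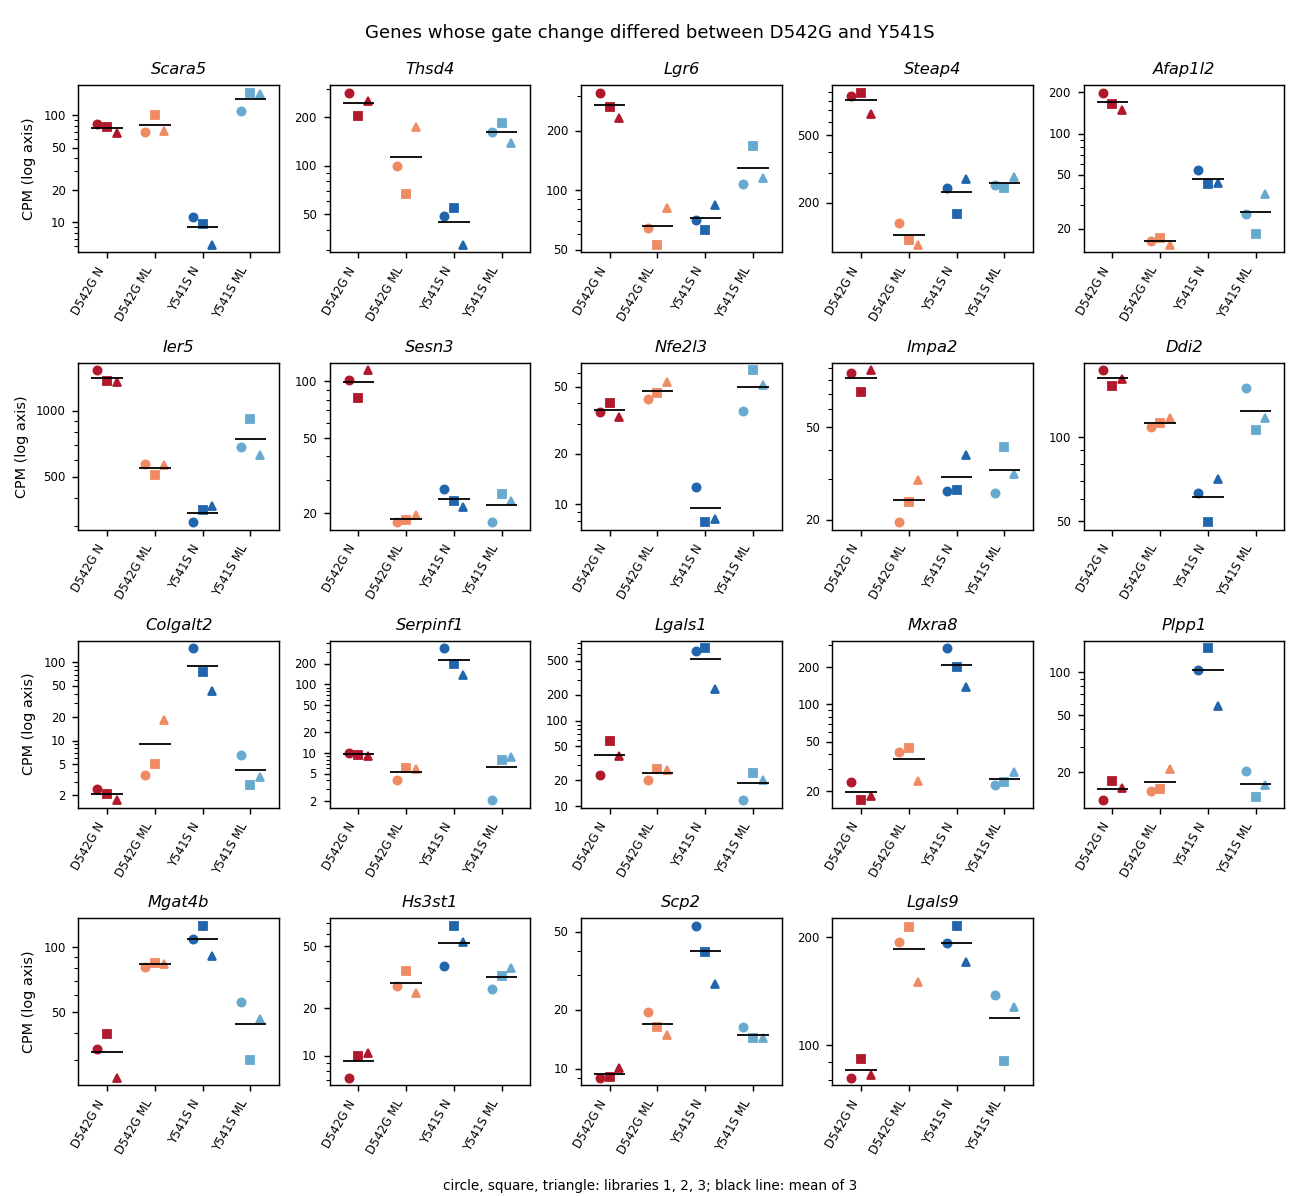
Level of 19 called genes in each library (CPM, log axis, 1 panel a gene with its own range), with D542G N, D542G ML, Y541S N and Y541S ML from left to right. Circles, squares and triangles are libraries 1, 2 and 3, and the black line is their mean. The first 10 panels are genes with a higher gate change in D542G and the last 9 genes with a lower one. Serpinf1, Lgals1, Mxra8 and Plpp1 are high in Y541S N only.

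Mxra8, a cell surface protein of the immunoglobulin superfamily and an entry receptor for alphaviruses, was the only gene with a lower gate change in D542G that also passed with pairs (chromosome 4, 155839680 to 155844088, plus strand). It stood at 23.8, 17.0 and 18.4 CPM in D542G N and at 41.4, 44.3 and 24.4 CPM in D542G ML. It stood at 284, 202 and 137 CPM in Y541S N and at 22.4, 23.7 and 28.7 CPM in Y541S ML. Only the Y541S N libraries were high. The gate change was -0.90 in D542G and 3.06 in Y541S, a difference of -3.95 ± 0.52 (edgeR adjusted p = 0.0131, paired 0.049). Mxra8 in the WT libraries was 23.1 to 53.6 CPM in N and 13.2 to 29.8 CPM in ML.

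Serpinf1, which encodes the secreted anti-angiogenic factor PEDF, was high in the same 3 libraries (chromosome 11, 75409769 to 75422701, minus strand). Its levels were 10.1, 9.49 and 9.15 CPM in D542G N, 4.07, 6.09 and 5.85 CPM in D542G ML, 338, 196 and 138 CPM in Y541S N, and 2.07, 7.95 and 8.81 CPM in Y541S ML (difference -4.31 ± 0.66, edgeR adjusted p = 0.021, paired 0.186). Serpinf1 in the WT libraries was 5.12 to 11.2 CPM in N and 1.83 to 2.36 CPM in ML. Lgals1, which encodes galectin-1, a lectin that binds beta-galactosides, had 23.0, 58.6 and 39.0 CPM in D542G N and 20.1, 27.2 and 26.7 CPM in D542G ML. In Y541S it had 653, 705 and 236 CPM in N and 11.8, 24.2 and 20.2 CPM in ML (difference -4.12 ± 0.65, edgeR adjusted p = 0.0223, paired 0.0767). Plpp1, a phosphatase of lipid phosphates, had 12.8, 17.4 and 15.5 CPM in D542G N, 14.8, 15.3 and 21.2 CPM in D542G ML, 104, 147 and 58.4 CPM in Y541S N, and 20.4, 13.4 and 16.3 CPM in Y541S ML (difference -2.79 ± 0.43, edgeR adjusted p = 0.021, paired 0.135). In all of Serpinf1, Lgals1 and Plpp1, library 3 was the lowest of the Y541S N libraries, and the differences without it were larger, at -4.59, -4.50 and -3.09.

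Colgalt2, which adds galactose to collagen, had the largest negative difference of the 20 genes. It had 2.38, 2.08 and 1.74 CPM in D542G N, 3.62, 4.99 and 18.2 CPM in D542G ML, 152, 75.2 and 42.8 CPM in Y541S N, and 6.56, 2.68 and 3.48 CPM in Y541S ML. D542G N was the lowest group and Y541S N the highest (difference -6.52 ± 1.11, edgeR adjusted p = 0.0333, paired 0.135). Scp2, a carrier and thiolase of sterols and branched lipids in peroxisomes, had the same order at a smaller range. Its levels were 9, 9.10 and 10.1 CPM in D542G N, 19.6, 16.4 and 14.9 CPM in D542G ML, 53.7, 39.6 and 27.0 CPM in Y541S N, and 16.3, 14.3 and 14.3 CPM in Y541S ML (difference -2.27 ± 0.38, edgeR adjusted p = 0.0321, paired 0.17).

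In the remaining 3 genes N was called lower than ML in D542G. Mgat4b, which branches N-glycans, had 33.9, 39.4 and 24.8 CPM in D542G N and 81.4, 85.0 and 83.6 CPM in D542G ML. In Y541S the order turned round, with 110, 126 and 91.2 CPM in N and 56.0, 29.9 and 46.6 CPM in ML, and both gate changes were called (difference -2.65 ± 0.35, edgeR adjusted p = 0.0131, paired 0.0767). Hs3st1, a heparan sulfate sulfotransferase, had 7.22, 10 and 10.4 CPM in D542G N and 27.9, 34.7 and 25 CPM in D542G ML, against 37.2, 67.3 and 53.3 CPM in Y541S N and 26.5, 32.3 and 36.4 CPM in Y541S ML (difference -2.39 ± 0.35, edgeR adjusted p = 0.0193, paired 0.0652). Lgals9, which encodes galectin-9, had 81.1, 91.4 and 82.8 CPM in D542G N and 194, 213 and 150 CPM in D542G ML, against 192, 215 and 171 CPM in Y541S N and 138, 90.1 and 128 CPM in Y541S ML (difference -1.83 ± 0.32, edgeR adjusted p = 0.0377, paired 0.131).

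Some further genes that edgeR did not call with all libraries passed when libraries were paired or Y541S N library 3 was left out. Hcar2, a receptor for niacin and hydroxybutyrate, did so in both cases. It had 473, 488 and 425 CPM in D542G N and 53.3, 78.4 and 36.6 CPM in D542G ML, against 47.0, 37.6 and 136 CPM in Y541S N and 73.0, 59.1 and 118 CPM in Y541S ML. Only D542G N was high (difference 3.22 ± 0.60, edgeR adjusted p = 0.0598, paired 0.0429, without Y541S N library 3 0.00901). Mycl, a MYC family transcription factor, and Anpep, aminopeptidase N, were called with pairs but not without that library, at paired differences of 2.93 and 1.97 (edgeR adjusted p = 0.0429 for each). DESeq2 and limma-voom, with all libraries and no pairs, called Hcar2, Mycl and Anpep as well. Faah, the hydrolase of fatty acid amides, turned on 1 library. It had 82.0 to 88.1 CPM in D542G N, with 70.8 to 78.5 CPM in D542G ML, against 8.75, 8.63 and 43.2 CPM in Y541S N and 52.3 to 65.3 CPM in Y541S ML. Its difference was 1.71 with all libraries (edgeR adjusted p = 0.48) and 2.91 without Y541S N library 3 (adjusted p = 0.00947). Selenom and C2cd4b were also called without that library, at -3.42 and -4.18 (edgeR adjusted p = 0.0423 and 0.0428). Aplp1, a relative of the amyloid precursor, and Flnc, the actin crosslinker filamin C, were called by none of these 3 edgeR fits, at differences of -2.84 and -3.83 (edgeR adjusted p = 0.0559 and 0.0837). DESeq2, with all libraries and no pairs, called both Aplp1 and Flnc.

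The receptor binds DNA at a palindrome of 2 short arms, and promoters of the called genes were read for it. RefSeq (GRCm38.p6) gave the 250 bases before the start of 14 of the 20 genes and of 12594 of all genes tested. The full element, GGTCA and TGACC separated by any 3 bases, was in 0 of the 14 promoters and in 4 of all (0.0318%). A single arm, AGGTCA or on the other strand TGACCT, was in 4 of the 14 (28.6%) and in 1710 of all (13.6%). The windows of these 4 genes follow, each 5′ to 3′ on the strand of the gene, with that arm in capitals. Nfe2l3 (chr6:51432419-51432668, plus strand) and Afap1l2 (chr19:57008576-57008825, minus strand) had a higher gate change in D542G. Serpinf1 (chr11:75422624-75422873, minus strand) and Scp2 (chr4:108118548-108118797, minus strand) had a lower one. The Scp2 window precedes the start that RefSeq lists, which lies inside the longer span of the gene in GENCODE (chromosome 4, 108043839 to 108144998), so other starts of Scp2 were not read. The starts of Afap1l2 and Serpinf1 also differ between RefSeq and GENCODE. The Afap1l2 window lies beyond its GENCODE span, which ends at 57008228. The Serpinf1 window reaches into its GENCODE span, which ends at 75422701. A match describes the letters only.
Nfe2l3: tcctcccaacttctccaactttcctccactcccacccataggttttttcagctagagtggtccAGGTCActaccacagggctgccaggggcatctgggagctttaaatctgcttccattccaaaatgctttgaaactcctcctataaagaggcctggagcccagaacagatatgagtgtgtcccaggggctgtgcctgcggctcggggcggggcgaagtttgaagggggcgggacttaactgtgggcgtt
Afap1l2: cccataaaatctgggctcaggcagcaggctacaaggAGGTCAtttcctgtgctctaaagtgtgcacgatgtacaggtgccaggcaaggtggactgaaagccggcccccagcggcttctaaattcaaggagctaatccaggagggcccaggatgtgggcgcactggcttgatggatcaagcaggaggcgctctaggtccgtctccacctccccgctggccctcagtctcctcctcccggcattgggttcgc
Serpinf1: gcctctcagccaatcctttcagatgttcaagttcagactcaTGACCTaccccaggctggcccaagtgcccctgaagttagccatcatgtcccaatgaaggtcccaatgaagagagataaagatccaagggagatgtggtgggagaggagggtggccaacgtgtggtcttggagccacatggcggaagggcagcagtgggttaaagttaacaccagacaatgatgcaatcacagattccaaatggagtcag
Scp2: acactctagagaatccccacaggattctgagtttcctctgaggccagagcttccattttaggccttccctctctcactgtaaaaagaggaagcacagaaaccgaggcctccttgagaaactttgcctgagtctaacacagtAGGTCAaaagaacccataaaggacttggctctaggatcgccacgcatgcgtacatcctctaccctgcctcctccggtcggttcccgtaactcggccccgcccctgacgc
The arm began 187 bases before the RefSeq start in Nfe2l3, 214 in Afap1l2, 209 in Serpinf1 and 109 in Scp2.

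The wider gene lists were read by counts at an unadjusted p under 0.05, set beside 3.95% of all genes tested higher and 4.67% lower, and beside a median difference of -0.02 over all genes. Only 1 list member, Lgr6 of the Wnt list, was called by edgeR. Of 23 basal and myoepithelial genes tested, 10 had a lower gate change in D542G at that level and 0 a higher one, with a list median of -0.09. The same count of 10 was found without Y541S N library 3 and without Y541S N library 2, and 8 with pairs. N was called above ML for 12 of the 23 in D542G and for 17 in Y541S, with median gate changes of 2.26 and 4.52. Over all genes tested, N was called above ML for 4.71% in D542G and 4.22% in Y541S. The 10 were Acta2, Tagln, Myh11, Mylk, Cnn1 and Actg2 of the contractile apparatus, the oxytocin receptor Oxtr, the matrix protein Sparc, the R-spondin receptor Lgr5 and the filament protein Vim.

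Acta2, smooth muscle actin, had 214, 318 and 221 CPM in D542G N and 39.5, 54.9 and 167 CPM in D542G ML. It had 4640, 2440 and 2670 CPM in Y541S N and 46.2, 131 and 99.9 CPM in Y541S ML. Y541S N was therefore far above the other groups, while D542G N was only somewhat above the ML libraries (difference -3.61 ± 0.92, unadjusted p = 0.00138, edgeR adjusted p = 0.203). Oxtr, through which oxytocin contracts myoepithelium, had 75.7, 81.2 and 71.0 CPM in D542G N and 13.7, 14.7 and 19.9 CPM in D542G ML, against 1810, 1180 and 623 CPM in Y541S N and 22.3, 33.3 and 18.5 CPM in Y541S ML (difference -3.37 ± 1.0, edgeR adjusted p = 0.294). Sparc had 216, 290 and 326 CPM in D542G N, with 49.3 to 144 CPM in D542G ML, against 3220, 2820 and 1500 CPM in Y541S N and 47.5 to 157 CPM in Y541S ML (difference -2.86 ± 0.70, edgeR adjusted p = 0.196). Myl9, a myosin light chain outside the list and named after its values were seen, had 37.3, 62.9 and 50.9 CPM in D542G N, with 12.7 to 27.9 CPM in D542G ML, against 716, 441 and 457 CPM in Y541S N and 9.18 to 29.1 CPM in Y541S ML (difference -3.29 ± 0.67, edgeR adjusted p = 0.0973). In each of these genes the Y541S N libraries were the 3 highest of the 12.

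Krt14, Trp63, Krt5 and Krt17, the basal keratins and transcription factor, did not share the lower gate change in D542G with all libraries and no pairs. Krt14 had 12100, 9920 and 12000 CPM in D542G N and 50.1, 71.4 and 113 CPM in D542G ML, against 10600, 9470 and 19500 CPM in Y541S N and 50.3, 159 and 839 CPM in Y541S ML. The N gates of the genotypes overlapped, and the difference was 1.94 ± 1.49 (edgeR adjusted p = 0.782). Trp63 had 701, 713 and 692 CPM in D542G N, with 6.80 to 23.3 CPM in D542G ML, against 676, 344 and 608 CPM in Y541S N and 3.54, 7.08 and 108 CPM in Y541S ML (difference 1.95 ± 1.80, edgeR adjusted p = 0.84). Krt5, whose Y541S N libraries were again the 3 highest, had 2020, 2710 and 2470 CPM in D542G N, with 22.6 to 76.1 CPM in D542G ML, against 5340, 4660 and 11000 CPM in Y541S N and 6.89, 28.7 and 597 CPM in Y541S ML. Its difference of 0.78 ± 1.84 (edgeR adjusted p = 0.966) became -1.07 with pairs and -2.79 without Y541S ML library 3. Krt17 was likewise 1.71 (edgeR adjusted p = 0.872) and became -1.04 with pairs and -2.59 without that library. Y541S ML library 3 held more of these genes than the other Y541S ML libraries, and its keratinocyte keratin sum was 7780 CPM, against 139 and 244 CPM in libraries 1 and 2.

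The summed levels of pericyte and of endothelial markers, like the contractile genes, were highest in the Y541S N libraries. EdgeR called 0 of the single markers in the comparison of gate changes, and many single markers overlapped between groups. The summed level of 9 pericyte and smooth muscle markers was 112 to 115 CPM in D542G N, 66.6 to 109 CPM in D542G ML, 317 to 439 CPM in Y541S N and 71.5 to 130 CPM in Y541S ML, and none of the 9 was at 0 in all libraries. In the N libraries Mcam was the most abundant of the 9, with 65.4 to 68.3 CPM in D542G N, against 146 to 328 CPM in Y541S N. Cspg4 had 2.16 to 7.51 CPM in D542G N, against 32.0 to 68.4 CPM in Y541S N, and 0.975 to 4.34 CPM in Y541S ML. Of the 9, only Mcam and Cspg4 had every Y541S N library above all libraries of the other groups. In Rgs5, Pdgfrb, Kcnj8, Abcc9, Des and Higd1b, Y541S N overlapped at least 1 other group. Rgs5 stood at 16.7 to 20.7 CPM in D542G N, against 29.3 to 45 CPM in Y541S N, and Pdgfrb, at 6.46 to 9.88 CPM in D542G N, against 9.44 to 29.6 CPM in Y541S N, had a difference of gate changes of 0.15 (unadjusted p = 0.899). The sum of 14 endothelial markers was 232 to 353 CPM in D542G N, 302 to 359 CPM in D542G ML, 494, 1200 and 528 CPM in Y541S N and 291 to 453 CPM in Y541S ML, again with none at 0 throughout. This result leaned on Y541S N library 2. At an unadjusted p under 0.05, 7 of the 14 were higher in N in Y541S, and 1 was without that library. The median difference of gate changes was -0.93, and -0.41 without it. The sum of 12 fibroblast markers, mostly Gsn and Dcn, was 1880 to 2090 CPM in D542G N, 928 to 1020 CPM in D542G ML, 2220 to 5060 CPM in Y541S N and 606 to 1740 CPM in Y541S ML. Some members did not follow the sums. Notch3 stood at 6.35 to 12.2 CPM in Y541S N, against 35.0 to 40.2 CPM in D542G ML and 40.5 to 43.5 CPM in Y541S ML. Vwf stood at 30.0 to 109 CPM in Y541S N, against 121 to 146 CPM in D542G ML and 82.4 to 149 CPM in Y541S ML. Dcn stood at 255 to 371 CPM in D542G N, against 70.7 to 175 CPM in Y541S N. At an unadjusted p under 0.05, 2 pericyte, 2 endothelial and 0 fibroblast markers had a lower gate change in D542G, and 0 of any a higher one. They were Mcam and Cspg4, and Vwf and Erg. The part of these cells in the contractile result was not tested.

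Matrix and mesenchymal genes shared the order of Acta2 in part. Of 25 collagens and matrix genes, 5 had a lower and 1 a higher gate change in D542G at an unadjusted p under 0.05 (median -1.18, and -0.63 without Y541S N library 3), and 3 were lower without Y541S N library 2. Postn, the matrix protein periostin, had 105, 192 and 69.1 CPM in D542G N, with 14.0 to 19.0 CPM in D542G ML, against 5170, 2090 and 1940 CPM in Y541S N and 10.3 to 90.6 CPM in Y541S ML (difference -3.30 ± 1.01, edgeR adjusted p = 0.309). Eln, elastin, had a difference of -2.10, whereas Tnc, tenascin C, had one of 3.95 with D542G N above all other libraries (edgeR adjusted p = 0.271 and 0.395). Of 19 mesenchymal transition genes, 4 were lower and 2 higher, with 0 higher without Y541S N library 3. Prrx1, a mesenchymal homeobox factor, had 0.751 to 2.22 CPM in D542G N, with 0.962 to 2.15 CPM in D542G ML, against 15.4 to 34.0 CPM in Y541S N and 0.499 to 2.06 CPM in Y541S ML (difference -4.66 ± 1.05, edgeR adjusted p = 0.133). Mmp2, a gelatinase, was far above ML in both genotypes, with 71.1 to 96.1 CPM in D542G N, with 5.92 to 12.3 CPM in D542G ML, against 492 to 1100 CPM in Y541S N and 6.58 to 17.3 CPM in Y541S ML (difference -2.45 ± 0.79, edgeR adjusted p = 0.346). Itga9, an integrin for matrix ligands such as tenascin, had 5.11 to 7.16 CPM in D542G N, with 2.25 to 4.53 CPM in D542G ML, against 30.1 to 101 CPM in Y541S N and 1.74 to 3.57 CPM in Y541S ML (difference -3.84 ± 0.84, edgeR adjusted p = 0.128).

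In the Wnt list of 38 genes, 2 had a higher and 4 a lower gate change in D542G at an unadjusted p under 0.05, and without Y541S N library 3 the counts were 5 and 5. The R-spondin receptors differed in sign. Lgr6 was called higher as given above, and Lgr5 had 27.4, 37.6 and 27.9 CPM in D542G N, with 1.72 to 4.62 CPM in D542G ML, against 982, 705 and 297 CPM in Y541S N and 1.45 to 14.0 CPM in Y541S ML (difference -3.36 ± 1.23, edgeR adjusted p = 0.431). Dkk3, a secreted protein of the Dickkopf family, was called higher in N in both genotypes, at gate changes of 3.72 in D542G and 5.87 in Y541S (difference -2.15, edgeR adjusted p = 0.361). So was the Wnt receptor Fzd7, at 1.42 in D542G and 2.51 in Y541S (difference -1.09, edgeR adjusted p = 0.288).

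**Figure D4:**
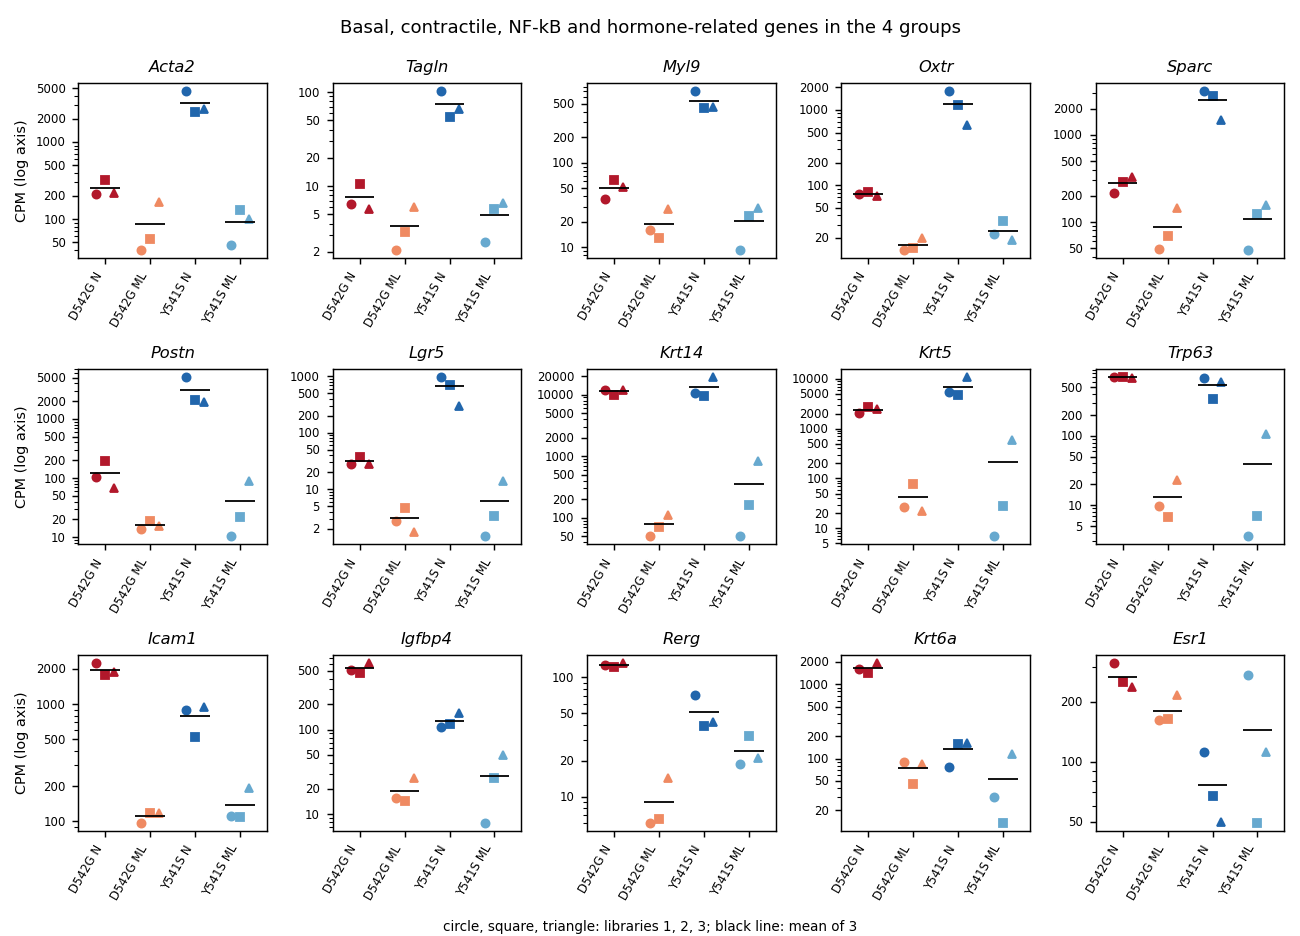
Level of 15 genes in each library (CPM, log axis, 1 panel a gene with its own range), with D542G N, D542G ML, Y541S N and Y541S ML from left to right. Circles, squares and triangles are libraries 1, 2 and 3, and the black line is their mean. Acta2, Tagln, Myl9, Oxtr, Sparc, Postn and Lgr5 are highest in the 3 Y541S N libraries, Icam1, Igfbp4, Rerg and Krt6a are highest in the 3 D542G N libraries, and Krt14 is high in both N groups.

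NF-kB and cytokine genes leaned the other way. Of 29 tested, 8 had a higher and 1 a lower gate change in D542G at an unadjusted p under 0.05 (median 0.36), and without Y541S N library 3 the count was 12 higher and 1 lower (median 1.30). Without Y541S N library 2 it was 5 higher and 1 lower (median 0.46). The 8 were the NF-kB subunit Rela, the IkB family members Nfkbia and Nfkbiz, the adhesion molecule Icam1, the apoptosis inhibitor Birc3 and the cytokines Cxcl1, Tnf and Csf3, and the lower one was Csf1. Icam1 had 2250, 1780 and 1870 CPM in D542G N and 97.5, 118 and 117 CPM in D542G ML. It had 893, 525 and 950 CPM in Y541S N and 112, 109 and 192 CPM in Y541S ML. It was called higher in N in both genotypes, with gate changes of 4.15 in D542G and 2.52 in Y541S, and the difference was 1.63 ± 0.43 (edgeR adjusted p = 0.223). Rela had 577 to 590 CPM in D542G N, with 271 to 287 CPM in D542G ML, against 267 to 525 CPM in Y541S N and 349 to 437 CPM in Y541S ML (difference 1.15 ± 0.42, edgeR adjusted p = 0.428). Birc3 had 150 to 175 CPM in D542G N, with 60.4 to 76.6 CPM in D542G ML, against 85.1 to 135 CPM in Y541S N and 91.5 to 113 CPM in Y541S ML (difference 1.12 ± 0.30, edgeR adjusted p = 0.23). In Tnf and Csf3 the D542G gates overlapped, and Y541S ML library 3 held the highest level of the 12 libraries, at 60.6 and 244 CPM.

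Of 23 immediate early genes, 5 had a higher and 0 a lower gate change in D542G at that level (median 0.58). Among them Fosb, Atf3, Jun and Klf6, which encode transcription factors, had differences of 1.15, 1.03, 1.37 and 1.28 (edgeR adjusted p = 0.273, 0.288, 0.487 and 0.513). Atf3 had 6130 to 6860 CPM in D542G N, with 3810 to 5010 CPM in D542G ML, against 4190 to 4500 CPM in Y541S N and 4680 to 7350 CPM in Y541S ML. The list's summed level was 51800 to 58700 CPM in D542G N, 24100 to 38600 CPM in D542G ML, 50300 to 58200 CPM in Y541S N and 32800 to 78000 CPM in Y541S ML. These sums overlapped between the N gates of the genotypes.

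Estrogen response genes did not share 1 direction. Of 25 tested, 4 had a higher and 2 a lower gate change in D542G at an unadjusted p under 0.05 (median 0.07). Without Y541S N library 3 the counts were 5 higher and 1 lower (median -0.01). They were 5 and 1 without Y541S N library 2 (median 0.32), and 4 and 1 with pairs (median 0.17). Igfbp4, a binding protein of insulin-like growth factors, had 507, 467 and 615 CPM in D542G N and 15.5, 14.3 and 26.9 CPM in D542G ML, against 107, 115 and 158 CPM in Y541S N and 7.92, 26.4 and 49.4 CPM in Y541S ML. It was called higher in N in both genotypes (difference 2.62 ± 0.85, edgeR adjusted p = 0.346). Rerg, a small GTPase first described as estrogen-regulated, had 128, 122 and 132 CPM in D542G N and 6.07, 6.52 and 14.4 CPM in D542G ML, against 70.9, 39.0 and 42.5 CPM in Y541S N and 18.8, 32.5 and 21.2 CPM in Y541S ML (difference 2.75 ± 0.58, edgeR adjusted p = 0.116). Nrip1, a corepressor of nuclear receptors, had 771 to 1050 CPM in D542G N, with 335 to 451 CPM in D542G ML, against 355 to 405 CPM in Y541S N and 290 to 419 CPM in Y541S ML (difference 1.13 ± 0.25, edgeR adjusted p = 0.131). Myb, a transcription factor, had a difference of 2.90 (edgeR adjusted p = 0.416). The 2 lower genes were Mybl1 and Rasd1, at differences of -2.48 and -0.75 (edgeR unadjusted p = 0.0286 and 0.0397). In Igfbp4, Rerg, Nrip1 and Myb the 3 D542G N libraries were the highest of the 12.

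The standard readouts of the receptor showed no difference that passed the test. Pgr, the progesterone receptor, had 19.4 to 27.1 CPM in D542G N, with 8.81 to 29.8 CPM in D542G ML, against 3.50 to 11.6 CPM in Y541S N and 10.1 to 22.3 CPM in Y541S ML (difference 1.06 ± 1.46, edgeR adjusted p = 0.911). Greb1, a coactivator of the receptor, was called higher in N in both genotypes, with 6.36 to 10.5 CPM in D542G N, with 1.52 to 2.49 CPM in D542G ML, against 9.19 to 15.8 CPM in Y541S N and 1.58 to 2.02 CPM in Y541S ML (difference -0.88 ± 0.65, edgeR adjusted p = 0.766). Areg, the amphiregulin ligand that relays estrogen action, had a difference of 0.98 ± 0.86 (edgeR adjusted p = 0.829). Foxa1, a pioneer factor for the receptor, had 652 to 823 CPM in D542G N, with 356 to 803 CPM in D542G ML, against 43.0 to 114 CPM in Y541S N and 134 to 660 CPM in Y541S ML. Its Y541S N libraries were the lowest of the 12, and the difference was 2.31 ± 1.60 (edgeR adjusted p = 0.748). Standard errors of this size leave wide intervals, and a p above the threshold does not show that the genotypes were alike.

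Of 17 pan-luminal genes, N was called lower than ML for 4 in D542G and 7 in Y541S, and higher for 0 in either. Over all genes tested, N was called lower for 4.49% in D542G and 2.73% in Y541S, and higher for 4.71% and 4.22%. Ccnd1, cyclin D1, had gate changes of -2.84 in D542G and -2.92 in Y541S, and Prlr, the prolactin receptor, of -3.38 and -3.25, all of them called, with differences of 0.08 and -0.13 (edgeR adjusted p = 0.999 and 1.0). Epcam, an epithelial adhesion molecule, had 1600 to 1720 CPM in D542G N, with 2630 to 2880 CPM in D542G ML, against 566 to 995 CPM in Y541S N and 2340 to 2970 CPM in Y541S ML. It was called lower in N in Y541S, and the difference was 1.10 ± 0.55 (edgeR adjusted p = 0.617). Gata3, a luminal transcription factor, had 100 to 131 CPM in D542G N, with 345 to 538 CPM in D542G ML, against 141 to 180 CPM in Y541S N and 240 to 383 CPM in Y541S ML (difference -0.93 ± 0.54, edgeR adjusted p = 0.68). Krt8 and Krt18 had differences of -0.33 ± 1.13 and 0.57 ± 1.19 (edgeR adjusted p = 0.981 and 0.958). Of 26 hormone-sensing luminal genes 1 was higher and 0 lower, and of 17 pan-luminal genes 1 was higher and 1 lower, at an unadjusted p under 0.05. The lower pan-luminal gene was the mucin Muc1, with 3.39 to 5.44 CPM in D542G N, with 111 to 238 CPM in D542G ML, against 9.35, 80.2 and 18.3 CPM in Y541S N and 177 to 373 CPM in Y541S ML (difference -2.36 ± 0.83, edgeR adjusted p = 0.408). Among luminal progenitor genes Sox10, a transcription factor, was called lower in N in D542G and had 7.35 to 13.7 CPM in D542G N, with 49.8 to 121 CPM in D542G ML, against 66.5 to 166 CPM in Y541S N and 64.8 to 216 CPM in Y541S ML (difference -2.98 ± 0.81, edgeR adjusted p = 0.241).

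The sterol and fatty acid synthesis list held 5 genes of 28 with a lower and 0 with a higher gate change in D542G (median -0.38, and 4 lower and 1 higher with a median of 0.15 without Y541S N library 3). Sqle, squalene epoxidase, had 22.3, 36.5 and 8.94 CPM in D542G N and 162, 218 and 160 CPM in D542G ML, against 40.8, 65.4 and 208 CPM in Y541S N and 133, 98.0 and 209 CPM in Y541S ML (difference -2.51 ± 0.82, edgeR adjusted p = 0.363, and -1.54 without Y541S N library 3). Elovl5, a fatty acid elongase, and Srebf2, the sterol-sensing transcription factor, had differences of -1.73 and -1.24 (edgeR adjusted p = 0.202 and 0.395). D542G N held the lowest levels of all 4 groups in Sqle, Elovl5 and Srebf2.

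Ndrg1, Sgk1, Errfi1 and Skil, from other lists, were highest in the 3 D542G N libraries. Ndrg1, a stress and hypoxia gene, had 486, 421 and 488 CPM in D542G N, with 44.2 to 74.6 CPM in D542G ML, against 157 to 215 CPM in Y541S N and 67.3 to 192 CPM in Y541S ML (difference 2.53 ± 0.56, edgeR adjusted p = 0.131, paired 0.0767). Sgk1, a kinase induced by steroids, had 2830 to 3800 CPM in D542G N, with 774 to 912 CPM in D542G ML, against 867 to 1400 CPM in Y541S N and 677 to 929 CPM in Y541S ML (difference 1.46 ± 0.39, edgeR adjusted p = 0.235). Errfi1, an inhibitor of the EGF receptor, and Skil, a repressor of TGF-beta signalling, had differences of 1.29 and 1.16 (edgeR adjusted p = 0.303 and 0.314). Sgk1, Errfi1 and Skil were called higher in N in D542G but not in Y541S. Ltbp1, which stores latent TGF-beta in the matrix, and Lif, a cytokine, had differences of 2.23 and 2.36 (edgeR adjusted p = 0.221 and 0.223). For Lif this came from Y541S, where N was called lower than ML at a gate change of -2.59. Of 30 cell cycle and 28 oxidative phosphorylation genes, 0 passed an unadjusted p of 0.05 in either direction with all libraries.

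The keratinocyte, epidermal and milk lists moved with single libraries. Krt6a, a keratin of hair follicle and stressed epidermis, had 1620, 1420 and 1940 CPM in D542G N, with 45.4 to 89.6 CPM in D542G ML, against 76.0, 158 and 163 CPM in Y541S N and 13.7 to 114 CPM in Y541S ML (difference 3.17 ± 1.13, edgeR adjusted p = 0.416). In the keratinocyte and hair follicle keratin list 3 of 20 genes tested were higher and 0 lower at an unadjusted p under 0.05, with a median of 2.86. Without Y541S N library 3 these became 7 of 21 and 5.92. In the epidermal differentiation list 0 of 23 passed with all libraries (median 0.74), and 9 of 24 were higher without that library (median 5.68). The summed level of epidermal genes was 1800 to 2160 CPM in D542G N, 492 to 645 CPM in D542G ML, 1330, 1260 and 6830 CPM in Y541S N, and 531, 704 and 3470 CPM in Y541S ML. Y541S libraries numbered 3 were thus the high ones in both gates. The 20 milk and alveolar genes tested had a median of -2.80 with 1 lower, and a median of 0.78 with 0 lower without Y541S N library 2. They had 5 lower (median -3.31) without Y541S N library 3 and 8 lower (median -1.70) with pairs. The counts and medians of these lists thus moved with Y541S N libraries 2 and 3, whereas Krt6a was at similar levels in both. The part of neighbouring skin or secretory cells was not tested.

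**Figure D5:**
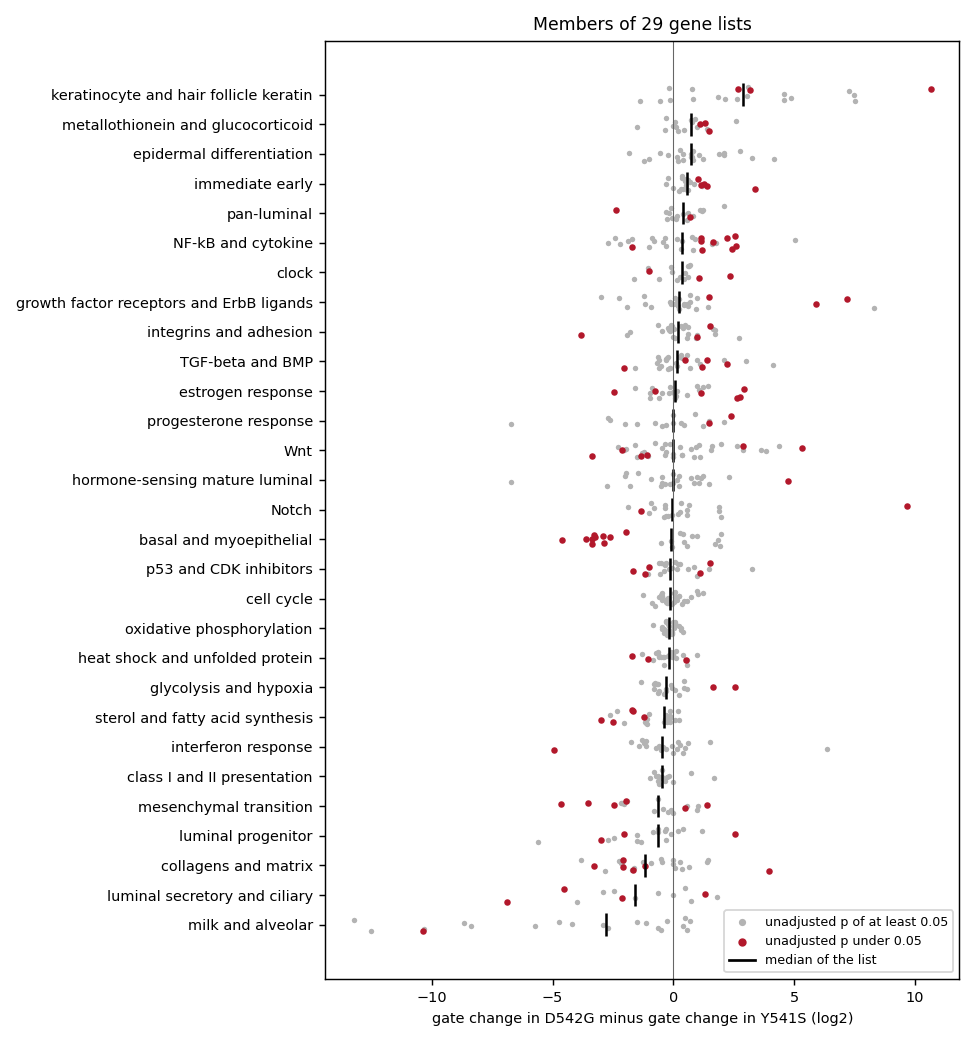
Difference of gate changes (D542G minus Y541S, log2) for each tested member of 29 gene lists, 1 row a list, ordered by the list's median (black bar). Red points have an unadjusted p under 0.05 and grey points do not. The keratinocyte keratin list has the highest median at 2.86 and the milk and alveolar list the lowest at -2.80, and 10 of the 23 basal genes form a red group between -4.63 and -1.98.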

How the data were processed

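RNA of sorted mouse mammary cells was sequenced from Nextera XT libraries, per the labels' protocols, with GRCm38 as genome build, per the submitters' processing notes. For aligner, counter, annotation and strand use: not given in the sources used here. The deposited count column holds whole-number read counts per gene for 52636 genes, of which 52489 identifiers matched GENCODE release M21. The members and gene lists were chosen with earlier results of these data known.

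Tests ran in edgeR 4.0.16 under R 4.3.3. Filtering by group (minimum count 10, minimum total 15) left 18298 genes, scaled by TMM (factors 0.850 to 1.10). A quasi-likelihood model of 6 group means over all 18 libraries (12 residual degrees of freedom, common dispersion 0.425) gave the interaction as a contrast, with Benjamini-Hochberg adjustment over all genes tested and calls at an adjusted p under 0.05. CPM values use TMM-scaled totals. The code was tested on simulated data.

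The labels give N and ML libraries of a genotype shared numbers without saying why. In log2(CPM + 1) all 6 same-numbered pairs deviated together (correlations 0.239 to 0.553, against -0.44 to 0.113 for other pairs), so the numbers were taken as pairs from the data, and the paired fit has a term for each genotype and number. Replicate libraries of each group differed by far more than counting noise. With 3 values against 3, an exact permutation test of 1 gene cannot go below 0.1, so none was run.

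Named genes were the 10 highest and 10 lowest called log2 values at an average log2 CPM of at least 3, the same 6 and 6 in the paired fit and without Y541S N library 3 (filled by smallest p where fewer were called), up to 4 members of each list by smallest p, and 15 hormone, luminal and basal genes whatever their values. Predicted genes were passed over. Gm17344, Myl9, 5 further basal genes (Myh11, Mylk, Cnn1, Actg2, Krt17), 5 further NF-kB genes (Rela, Nfkbia, Nfkbiz, Tnf, Csf3) and the choice of list members described were made after values were seen. Alternatives were DESeq2 1.42.0, limma-voom 3.58.1 with quality weights, RLE scaling, 2 other filters, only the 12 mutant libraries, pairing, and each library left out in turn. Where a group is left with 2 libraries, the fit takes its spread from all groups.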

Additional observations from a re-analysis of the deposited data

Results flagged for a closer look

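The 20 genes whose gate change differed between D542G and Y541S by the interaction test are the results of this kind (edgeR quasi-likelihood, adjusted p under 0.05). The gate change in D542G minus that in Y541S, on the log2 scale, was 7.59 for Gm17344, 3.92 for Scara5, 2.97 for Thsd4, 2.86 for Lgr6 and 2.83 for Steap4. It was 2.59 for Afap1l2, 2.48 for Ier5, 2.30 for Sesn3, 2.0 for Nfe2l3, 1.85 for Impa2 and 1.56 for Ddi2. It was -6.52 for Colgalt2, -4.31 for Serpinf1, -4.12 for Lgals1, -3.95 for Mxra8 and -2.79 for Plpp1. It was -2.65 for Mgat4b, -2.39 for Hs3st1, -2.27 for Scp2 and -1.83 for Lgals9. Of the 12 fits that each left out 1 mutant library, Ier5, Mxra8 and Mgat4b kept their call in 9 and Scara5 in 8, whereas Steap4, Afap1l2, Colgalt2 and Lgals9 kept it in 1. No gene of the 20 kept its call in all 12.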

How the results depend on the processing

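Against 20 called genes, the difference of gate changes gave 329 with DESeq2, 263 with limma-voom, 49 from the 12 mutant libraries alone, 7 with the replicate block, 13 with the block in those 12 libraries alone and 1 with the block and without Y541S N library 3. RLE scaling gave 20, no filter 16 and a stricter filter 23. Leaving out 1 mutant library gave 0 to 23 called genes, and leaving out WT N library 3 gave 54. The sign held for all 20 genes under every alternative that tested them (19 under the stricter filter, which left out Gm17344). N against ML gave, in D542G and Y541S, 3186 and 2494 genes with DESeq2, 5862 and 2595 with limma-voom, 2722 and 2144 in the 12 libraries alone, and 2653 and 2116 with the block there, against 1684 and 1272. With 1 library left out these counts were 702 to 2545 in D542G and 571 to 2045 in Y541S. Pairing, which was read from the data, changed calls of single genes as given beside them.

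Over 97 named genes and 22 alternatives, 1812 of 2133 values kept direction and side of the threshold, 89 newly passed it, 213 no longer did, and 19 turned sign. None of the 5 genes that turned was called. Krt5 was -0.32 with limma-voom, -1.07 with the replicate block, -1.08 with the block in the 12 libraries and -2.44 with the block and without Y541S N library 3. Krt17 was -1.04, -1.05 and -2.61 under the 3 blocked fits in that order, and Trp63 was -0.68 under the last. With 1 library left out Krt5 ran from -2.79 to 1.54, Krt17 from -2.59 to 2.59, Trp63 from -0.95 to 2.63, Ccnd1 from -0.18 to 0.51, Prlr from -0.80 to 0.33 and Krt8 from -0.69 to 0.00. The causes were not tested. With 3 libraries a group and a biological coefficient of variation of 0.652, the smallest difference that edgeR called was 1.56 (Ddi2), and DESeq2 called smaller ones, such as 1.10 for Nrip1.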

Other observations

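Foxj1, the transcription factor of motile cilia, had 28.2, 45.5 and 39.4 CPM in D542G N and 11.9, 10.1 and 16.2 CPM in D542G ML, against 124, 66.3 and 58.0 CPM in Y541S N and 5.66, 5.40 and 8.04 CPM in Y541S ML. The Y541S N libraries were the highest and the Y541S ML libraries the lowest of the 12, and the difference of gate changes was -2.13 ± 0.76 (unadjusted p = 0.0135, edgeR adjusted p = 0.416). Transcripts of mast cell proteases were low in all groups and highest in Y541S N library 2. Tpsb2 stood at 3.33 to 7.85 CPM in D542G N, with 0.774 to 6.99 CPM in D542G ML, against 0.322, 26.5 and 1.13 CPM in Y541S N and 0 to 0.0678 CPM in Y541S ML. Mcpt4 and Cma1 were likewise highest in that library, at 10 and 14.5 CPM.

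In the remaining lists few genes passed an unadjusted p of 0.05, and edgeR called none. The counts were 4 higher and 1 lower of 31 TGF-beta and BMP genes, 3 higher of 27 growth factor receptor and ErbB ligand genes, and 2 higher and 3 lower of 24 p53 and CDK inhibitor genes. They were 1 higher and 1 lower of 21 Notch genes, 1 lower of 24 interferon response genes, and 0 of 15 antigen presentation genes. They were 1 higher and 2 lower of 19 luminal progenitor genes (6 lower without Y541S N library 3), 1 higher and 3 lower of 13 luminal secretory and ciliary genes, which include Foxj1, and 3 higher of 17 metallothionein and glucocorticoid genes. They were 2 higher and 1 lower of 16 clock genes, 2 higher of 18 progesterone response genes, 1 higher and 2 lower of 26 heat shock and unfolded protein genes, 2 higher of 20 glycolysis and hypoxia genes, and 2 higher and 1 lower of 28 integrin and adhesion genes. Without Y541S N library 3 the growth factor receptor count was 6 higher and the TGF-beta and BMP count 2 higher and 0 lower. Over all genes tested, 3.95% were higher and 4.67% lower at that level.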
